A study of Mus musculus with 12 samples.

Results

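The 35 genes described here encode the enzymes and carriers that burn fatty acids in mitochondria, with a few genes that stand next to that pathway. They were chosen by name, as the genes of the deposited count table whose symbol is on a list headed mitochondrial fatty acid oxidation and ketogenesis. All 35 of the 35 names were found among the 57490 genes of the table, and all 35 were among the 17431 genes with enough counts to be tested. The list holds 6 acyl-CoA synthetases (Acsl1, Acsl3, Acsl4, Acsl5, Acsm1 and Acsm2), 6 genes of the carnitine shuttle and its control (Cpt1a, Cpt1b, Slc25a20, Cpt2, Crat and Mlycd) and 7 genes of the acyl-CoA dehydrogenase family (Acads, Acadm, Acadl, Acadvl, Acad10, Acad11 and Acad12). It goes on with 4 genes for the later steps of the spiral (Hadha, Hadhb, Hadh and Acaa2), 4 auxiliary enzymes for unsaturated chains (Eci1, Eci2, Decr1 and Ech1) and 3 genes of electron transfer (Etfa, Etfb and Etfdh). Acot1, Acot2, Acot13 and Ucp2 (3 thioesterases and an uncoupling protein) are neighbours of the pathway, not steps of it. Bdh1 is the ketone body enzyme of the list.

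As background, a fatty acid is first joined to coenzyme A, carried across the inner mitochondrial membrane as its carnitine ester, and then shortened in repeated rounds of dehydrogenation, hydration, a further dehydrogenation and thiolysis. The electrons taken in each round reach the respiratory chain through the electron transfer flavoprotein and its oxidoreductase, and the acetyl-CoA can enter the citric acid cycle or be made into ketone bodies. In the kidney, fatty acids are a main fuel of the proximal tubule, which reabsorbs most of the filtered load and is rich in mitochondria.

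Polyadenylated RNA was sequenced from the kidneys of 12 male mice, 4 per group, all 13 weeks old. The Ctrl mice were BKS heterozygotes (db/+, written db/m in the labels) with a random blood glucose under 11.1 mmol/L, and were given purified water by gavage. The Model mice were BKS.Cg-Dock7m +/+ Leprdb/JNju (db/db), which lack the long leptin receptor and become obese and diabetic, with a random blood glucose of at least 16.7 mmol/L at selection, and were given the same volume of water. The YHY mice were db/db mice given a water extract of Yiqi Huoxue Yangyin Decoction, a mixture of botanical drugs, at 6.24 g/mL, of which 50 µL went by gavage to every 10 g of body weight once a day for 4 weeks. Both groups of db/db mice carry the same receptor mutation from birth, so diabetes and the loss of leptin signalling cannot be told apart in Model against Ctrl. The sample labels give whole kidney tissue, whereas the series text gives renal cortex. Total counts ran from 24415658 (Model 4) to 33276634 (Ctrl 1) per mouse, and 20382 to 22250 genes had at least 1 count. The study planned Model against Ctrl to find changes with diabetes, and YHY against Model to find the effect of the decoction. Both comparisons use the Model mice, so they are given side by side and are not independent.

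The libraries differed between groups in how much of the sequencing went to the mitochondrial genome, which holds none of the 35 genes. Its share of all counts was 18.6, 22.7, 18.4 and 18.5% in Ctrl 1 to 4, 41.2, 58.9, 55.3 and 53.4% in Model 1 to 4, and 53.8, 64.6, 54.6 and 54.2% in YHY 1 to 4. Every db/db mouse lay far above every Ctrl mouse, with Model 1 the lowest of the db/db mice and YHY 2 the highest. The group means were 19.5 ± 2.12%, 52.2 ± 7.68% and 56.8 ± 5.21% (SD, 4 mice each). Levels are therefore given as counts-per-million (CPM) scaled by the trimmed mean of M-values (TMM), which sets the libraries to 1 scale by the bulk of the genes rather than by the total. On that scale the 35 genes summed to 7297, 7954, 8064 and 6375 CPM in Ctrl 1 to 4, 4241, 3243, 3631 and 3165 CPM in Model 1 to 4, and 2401, 2882, 2968 and 4152 CPM in YHY 1 to 4. Every db/db mouse had a lower sum than every Ctrl mouse, and YHY 4 stood above 3 of the 4 Model mice while YHY 1 had the lowest sum. A single gene, Acsm2, made up 50.8% of the difference between the Ctrl and Model means. Without it, a sum chosen after the values were seen, the other 34 genes came to 4556 to 5285 CPM in the Ctrl mice, 2768 to 3475 in the Model mice and 2272 to 3546 in the YHY mice. As a share of the counts of nuclear genes alone, a measure that needs no scaling factor, the 35 genes made up 1.125 ± 0.0672%, 0.678 ± 0.0539% and 0.645 ± 0.109% in Ctrl, Model and YHY (SD, 4 mice each). In each single mouse the 95% Wilson interval of the share of all counts was narrow, such as 0.206 to 0.209% around 0.207% in YHY 2, and such intervals cover counting error only.

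**Figure D1:**
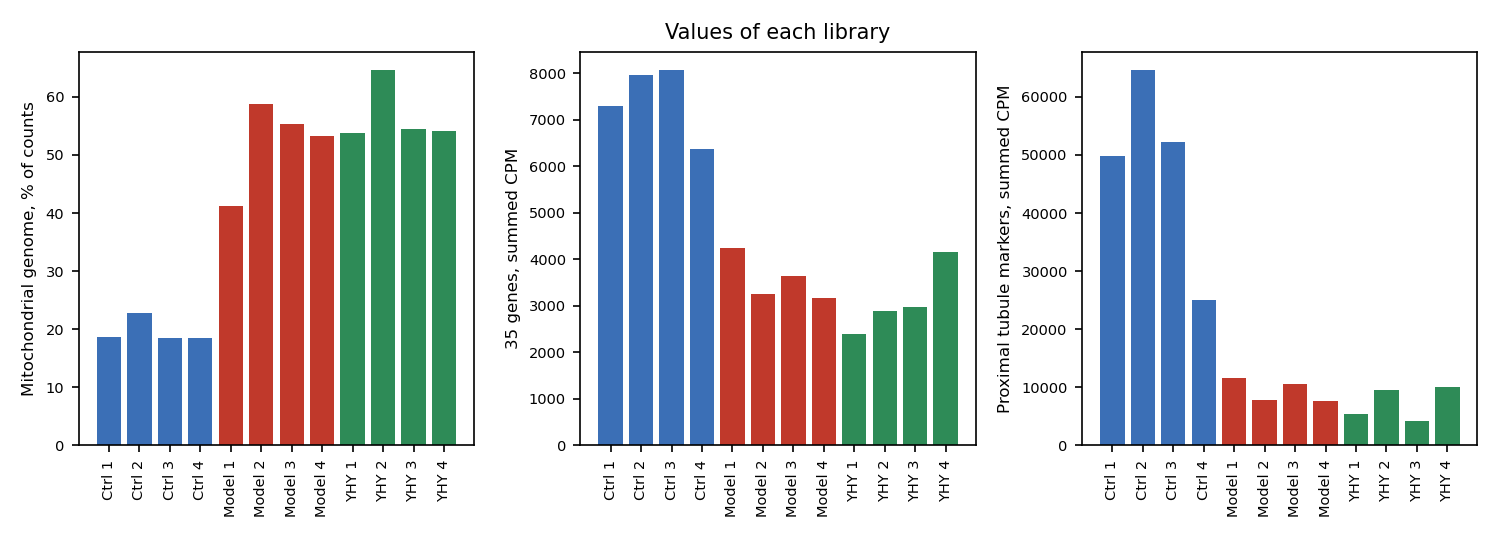
Each bar is 1 mouse of Ctrl (blue), Model (red) or YHY (green), and the panels give the share of counts from the mitochondrial genome (percent), the summed level of the 35 genes and that of the 10 proximal tubule markers (both in TMM-scaled CPM). The db/db mice lie at 41.2 to 64.6% against 18.4 to 22.7% in Ctrl for the mitochondrial genome, and at 2401 to 4241 CPM against 6375 to 8064 CPM in Ctrl for the 35 genes.

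A gene was called where the adjusted P of edgeR's quasi-likelihood test, with Benjamini-Hochberg adjustment across the 17431 genes, was under 0.05. That value is written edgeR adjusted P from here on. By that measure 18.5% of all genes tested were lower and 19.6% higher in Model than in Ctrl. In YHY against Model these shares were 7.62% and 5.63%. Calls among markers of the cell types that a kidney sample can hold are to be read beside those shares. Of 10 markers of the proximal tubule, 4 were lower in Model than in Ctrl (Lrp2, Cubn, Kap and Aqp1), 1 was higher (Slc22a8) and 5 were not called, and none of the 10 was called in YHY against Model by edgeR's test, where 4 were lower at an unadjusted P under 0.05 and DESeq2 called 4 lower. Library size alone gave 6 lower and none higher in Model against Ctrl, so the higher call of Slc22a8 depends on the scaling. Their summed level was 49759, 64603, 52160.4 and 24947 CPM in Ctrl 1 to 4, 11619, 7800.2, 10556 and 7539.7 CPM in Model 1 to 4, and 5396, 9445, 4173 and 10061 CPM in YHY 1 to 4, and Kap, an androgen-responsive gene, was the most abundant of them. Without Kap, a sum chosen after the values were seen, the remaining 9 markers came to 5391 ± 782 in Ctrl mice, 4285 ± 550.2 in Model mice and 3244 ± 1324 CPM in YHY mice (SD, 4 mice each). By mouse that sum was 5077, 6480.1, 5358 and 4649 CPM in Ctrl 1 to 4, 4670.2, 4336, 4641 and 3491 CPM in Model 1 to 4, and 1972, 3679, 2417 and 4908 CPM in YHY 1 to 4. Ctrl 4 lay below Model 1, so Ctrl and Model overlapped, and YHY 1 and YHY 3 lay below every Model mouse while YHY 4 lay above them all. Slc34a1, the phosphate carrier that defines the proximal tubule, had a log2 fold change of 0.06 ± 0.29 (SE, edgeR adjusted P = 0.893) in Model against Ctrl. Fewer cells of a type and less RNA per cell cannot be told apart in these bulk samples. The part of the proximal tubule markers in the results below was not tested.

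Markers of the other nephron segments did not share 1 direction. In Model against Ctrl, 4 of 5 markers of the thick ascending limb and 3 of 4 of the principal cell were lower, 3 of 4 of the distal convoluted tubule were higher, and 1 of 4 of the intercalated cell was lower. The principal cell had 2 lower with upper-quartile scaling and with DESeq2 and all 4 with library size alone, and the intercalated cell had none with upper-quartile scaling, while the counts of the other 2 segments stayed the same. The summed levels, as CPM means of 4 mice in the order Ctrl, Model and YHY here and below, were 2702, 1373 and 1945 for the thick ascending limb, with Slc12a1 the most abundant, and 295, 651 and 613 for the distal convoluted tubule, with Slc12a3 the most abundant. The principal cell markers, led by Aqp2, summed to 912, 385 and 377, and those of the intercalated cell, led by Atp6v1g3, to 161, 168 and 114. Podocyte markers were higher for 2 of 5, endothelial markers for 1 of 5, and of 5 leukocyte markers tested (of 6) 1 was higher and 1 lower. The 25% of the intercalated cell list and the 20% of the endothelial and leukocyte lists are close to the shares among all genes. Library size alone gave 1 podocyte marker higher and 1 lower, and no endothelial or leukocyte marker higher. Led by Podxl, Emcn and C1qa, they summed to 129, 154 and 107 for the podocyte, 179, 205 and 204 for the endothelium and 31.3, 26.3 and 39.6 for leukocytes, of which Cd3e and Cd79a were at most 1 CPM in every mouse. With library size alone the medians of the endothelial (-0.30) and intercalated cell (-0.39) markers turned negative, with upper-quartile scaling that of the leukocyte markers turned positive (0.02), and no direction is given for these 3 lists. The YHY mice had Pvalb of the distal convoluted tubule and Atp6v1g3 of the intercalated cell lower than the Model mice, and edgeR's test called no other marker of these lists, while DESeq2 also called 2 of the thick ascending limb and 1 of the principal cell higher and 1 of the endothelium lower. Of tissues that can cling to a kidney, most markers were nearly absent. The markers of white fat (Adipoq, Plin1, Lep, Retn and Cfd), brown fat (Ucp1, Cidea and Elovl3), skeletal muscle (Acta1, Ckm, Myh4 and Tnnt3) and adrenal cortex (Cyp11b1, Cyp11b2 and Cyp21a1) were all at most 1 CPM in every mouse, and Cyp11b2 was at 0 in all 12 mice. The other markers of these lists were Cidec, Ppargc1b, Mylpf, Hsd3b1 and Star. With them the summed levels were 0.488, 1.40 and 1.00 for white fat, 2.64, 8.45 and 8.06 for brown fat, 1.25, 2.28 and 1.36 for skeletal muscle and 2.37, 16.2 and 15.9 for adrenal cortex, most of it Hsd3b1 in the db/db mice. Model mice had Ppargc1b, Hsd3b1 and Star higher than Ctrl mice, at 1.72 (edgeR adjusted P = 0.000128), 4.22 (edgeR adjusted P = 2.68e-06) and 1.32 (edgeR adjusted P = 0.00128), while Cidec and Mylpf were not called. The liver markers, led by Alb, summed to 9.39 ± 3.05, 20.3 ± 3.18 and 16.1 ± 6.29 CPM in Ctrl, Model and YHY (SD, 4 mice each), with 2 of 4 higher in Model than in Ctrl, 3 with upper-quartile scaling and 1 with library size alone.

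In Model against Ctrl, 20 of the 35 genes were lower, 2 were higher and 13 were not called. Among all genes tested 18.5% were lower and 19.6% were higher, so lower calls made up 57.1% of the 35 genes and higher calls 5.71%. The median log2 fold change of the 35 genes was -0.58, beside 0.04 for all genes tested, and 29 of the 35 values were negative. In 17 genes every Model mouse lay below every Ctrl mouse, and in 2 genes every Model mouse lay above (48.6% and 5.71% of the 35), where 20.3% and 19.9% of all genes tested did so. YHY against Model gave fewer calls, with 5 genes lower, 2 higher and 28 not called, where 7.62% of all genes tested were lower and 5.63% higher. Lower calls were 14.3% and higher calls 5.71% of the 35 genes, the latter close to the share among all genes. The median was 0.03 for the 35 genes and 0.02 for all genes tested. No overlap between the mice was found for 3 lower genes (Acsm1, Acads and Hadh) and 1 higher gene (Acsl1), where 9.28% and 6.83% of all genes tested did so. The 3 lower genes are 8.57% of the 35, less than 1 gene from the share among all genes, and the 1 higher gene is 2.86%.

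The scaling sets how far the lower calls go. In Model against Ctrl, upper-quartile scaling took the median over all genes from 0.04 to 0.14, and library size alone took it to -0.39, where higher calls fell from 51.5% to 21.4% of all calls. The median of the 35 genes was negative under each, at -0.47 and -1.03, and stayed below that of all genes. Of the 22 calls, 16 held in all 21 alternatives that were tried, and no called gene changed sign in any of them. The calls of Acadvl, Crat, Ech1, Hadha, Acot1 and Acot2 were lost in at least 1 alternative, those of Acadvl, Crat, Ech1 and Hadha with upper-quartile scaling among others. With library size alone 7 more genes were called lower (Acad12, Acsl4, Acsm1, Cpt1a, Cpt2, Decr1 and Eci1). Of the 7 calls in YHY against Model, those of Acsl1, Acads and Hadh held in all 21. The other 4 (Ucp2, Acad12, Acsm1 and Bdh1) were lost when single mice, named beside each gene, were left out, and DESeq2 called 2 more genes lower (Etfb and Acot13).

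**Figure D2:**
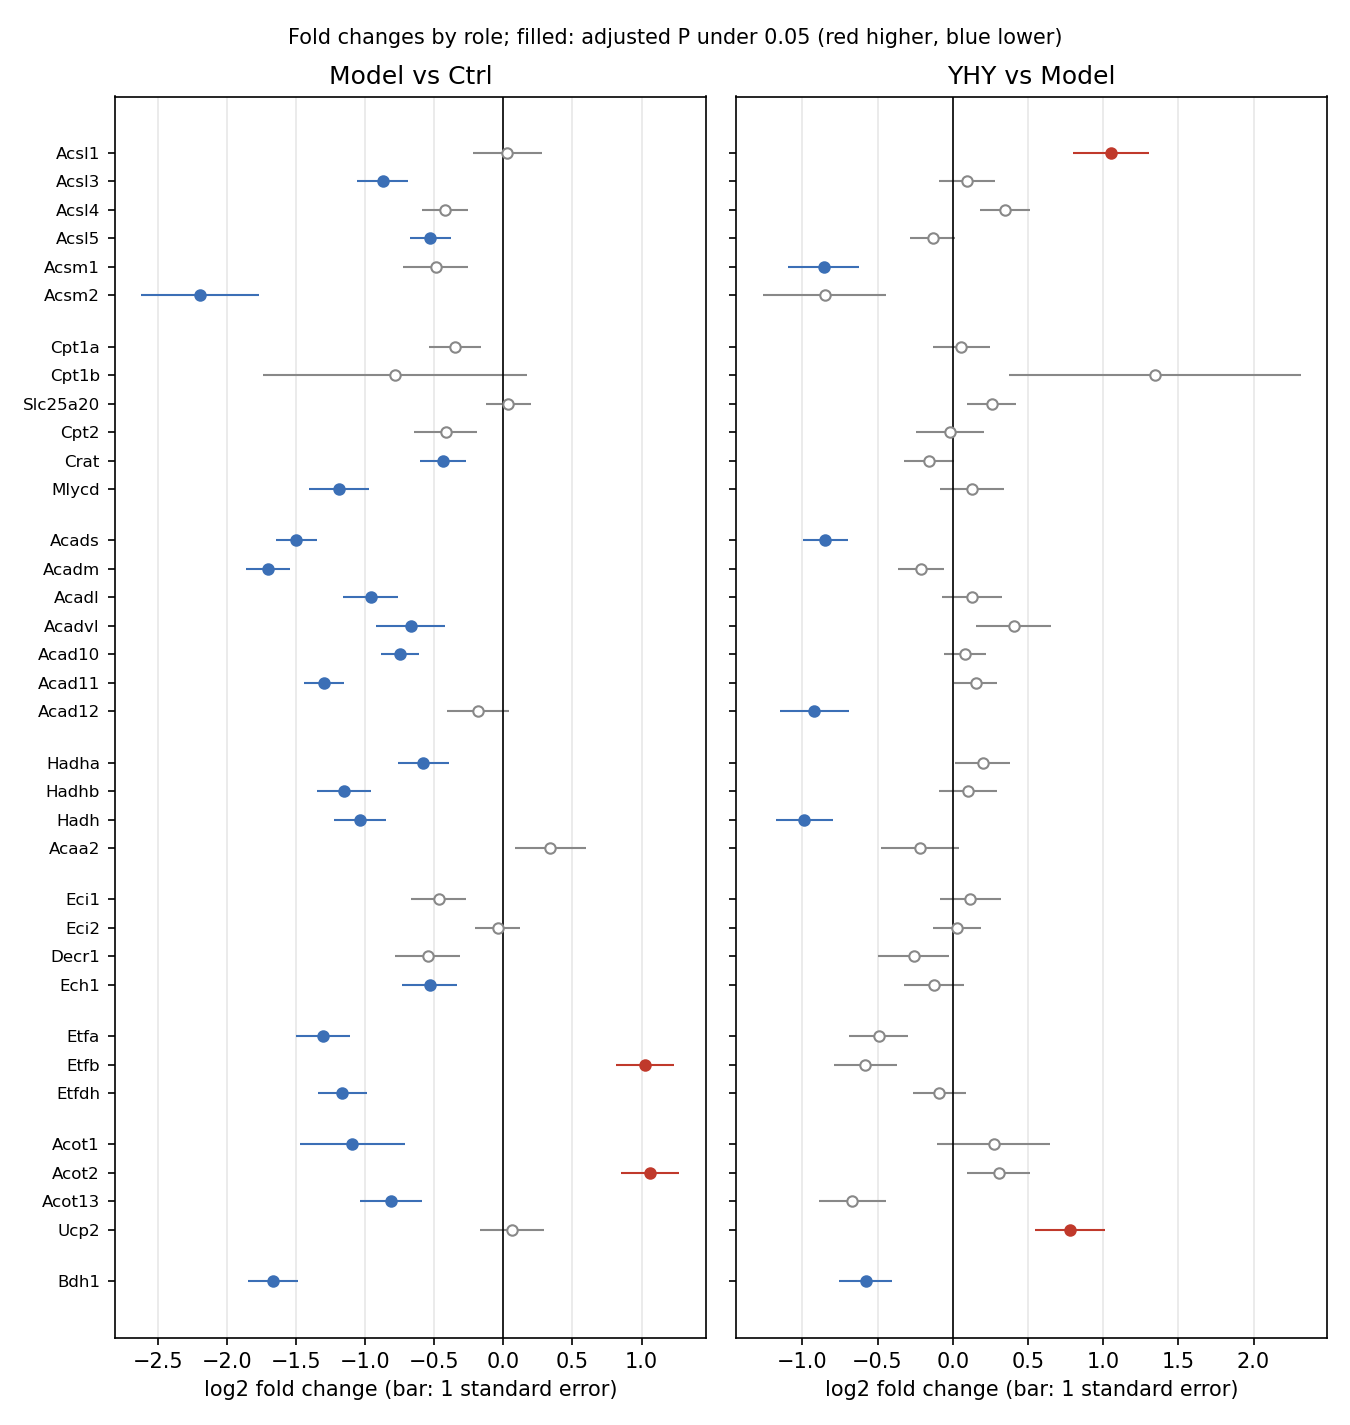
Each row is 1 of the 35 genes, ordered by role, and the points are log2 fold changes with their standard errors for Model against Ctrl and for YHY against Model, filled where edgeR's quasi-likelihood test called the gene. In Model against Ctrl the values run from -2.19 (Acsm2) to 1.06 (Acot2) with 29 of 35 below 0 under TMM scaling, whereas in YHY against Model 17 are negative and 18 positive.

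Per kilobase of the deposited gene length, the most abundant of the 35 genes were Ech1, Acsm2, Acsm1, Acot13 and Acadm, at means of 174, 151, 136, 121 and 101 CPM per kb over the 12 mice. That length exceeds the longest annotated coding transcript by unequal factors, such as 6595 against 2048 bases for Hadhb and 744 against 721 for Acot13. The order of genes per kilobase therefore depends on the length used, and genes with a long deposited length can be understated. The least abundant by count was Cpt1b at 0.0928 CPM per kb, with counts of 0 to 28 per mouse that are uncertain because another gene lies over it, while Cpt1a, the liver form of the same enzyme, stood at 19.7 CPM per kb. Over the 12 mice, Acsl1 at 13.3 CPM per kb was the most abundant of the 4 long-chain synthetases, and Acadm and Acadl at 91.4 CPM per kb of the dehydrogenases. The trifunctional protein subunits Hadha and Hadhb were lower, at 10.2 and 11.7 CPM per kb. By the deposited length, the order of levels was not the same in each group. Acsm2 led in Ctrl at 337 ± 85.0 CPM per kb (SD, n = 4), ahead of Ech1 at 224 ± 24.2, and in Model Ech1 at 155 ± 32.3 and Acsm1 at 138 ± 21.4 CPM per kb stood ahead of Acsm2 at 73.7 ± 22.6. In Model, Ech1 and Acsm1 lay within each other's spread. Acsl5 at 10.9 ± 2.08 stood above Acsl1 at 9.67 ± 3.05 CPM per kb in Ctrl (SD, n = 4), also within each other's spread. In CPM, before division by length, Acsl1 was above Acsl5 in Ctrl, at means of 101 and 53.2. Acadl stood above Acadm in Model, at 67.9 ± 13.9 against 59.3 ± 6.16 CPM per kb (SD, n = 4). The same order held in YHY, at 74.1 ± 20.0 against 51.1 ± 6.28 CPM per kb (SD, n = 4). In CPM the order was reversed, with mean levels of Acadm and Acadl of 232 and 136 in Model and 200 and 149 in YHY. Their deposited lengths are 3913 and 2005 bases and their longest coding transcripts 2047 and 1916, so the order per kilobase rests on the length used.

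**Figure D3:**
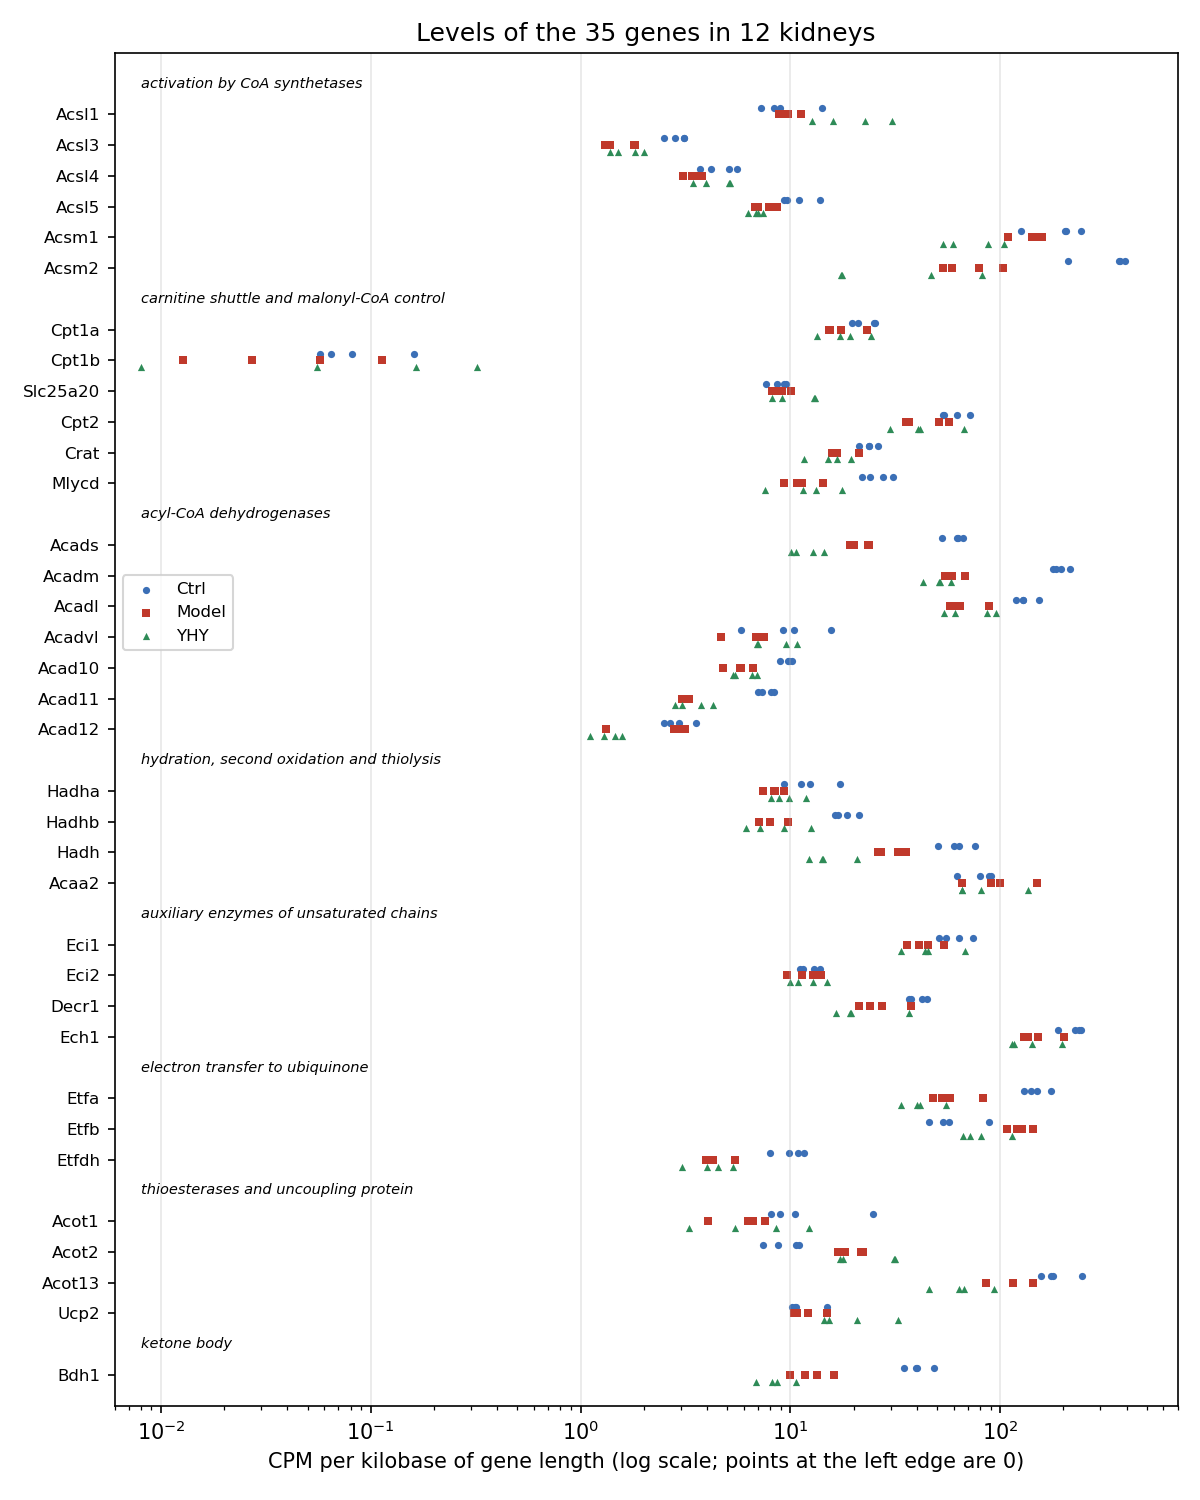
Each point is 1 mouse of Ctrl (circles), Model (squares) or YHY (triangles), and the x axis is the level in CPM per kilobase of gene length on a log scale, for the 35 genes by role. Means over the 12 mice run from 0.0928 (Cpt1b) to 174 CPM per kb (Ech1), and the circles of Acsm2, Acadm and Bdh1 lie to the right of every square.

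Many of these genes are known targets of PPAR-alpha, which binds as a pair with RXR to a DR1 element, 2 copies of AGGTCA with any 1 base between them. This motif was searched on both strands of the RefSeq promoters (250 bases before to 50 after the start, GRCm38.p6). The table held 33 promoters of 30 of the 35 genes, and Decr1, Cpt1b, Acaa2, Acot13 and Crat were not in it. No promoter of the 30 genes matched all 12 fixed bases, against 13 of all 32851 promoters (0.0396%). With at most 2 mismatches, 2 of the 33 matched (6.06%), against 3.86% of all promoters, and with at most 3 mismatches 12 did (36.4%), against 24.6%. The 2 closest matches are shown because they let a reader see how near the letters come. The Etfa stretch is chr9:55512285-55512344 on the minus strand and the Slc25a20 stretch is chr9:108662134-108662163 on the plus strand, each written 5′ to 3′ along the gene, with the matched letters in capitals.
Etfa: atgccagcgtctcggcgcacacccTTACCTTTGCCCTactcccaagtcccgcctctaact
Slc25a20: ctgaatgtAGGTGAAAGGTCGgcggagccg
Each match has 2 mismatches, and that of Etfa lies on the opposite strand, at -77 to -65 from the start, while that of Slc25a20 lies at 6 to 18. Etfa was lower in Model than in Ctrl and Slc25a20 was not called. A match describes the letters in this window and is not a binding site or a cause.

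Acyl-CoA synthetases start the pathway by joining a fatty acid to coenzyme A. Acsl genes take long chains, and Acsm1 and Acsm2 take medium chains. Of the 6, 3 were lower (50%, beside 18.5% of all genes tested) and none higher in Model than in Ctrl. The median log2 fold change was -0.51, negative under all scalings tried. Acsm2 (ENSMUSG00000030945, chr7:119153563-119199913), with coordinates as deposited (GRCm39 by the labels) here and below, a kidney gene of the medium-chain family, had 2741, 2926, 2779 and 1564 CPM in Ctrl 1 to 4, 766, 435, 589.6 and 397 CPM in Model 1 to 4, and 129, 346, 130.3 and 606 CPM in YHY 1 to 4. Ctrl 4 stood well below the other Ctrl mice but above every Model mouse, and YHY 1 and YHY 3 had the lowest levels of all. Its log2 fold change in Model against Ctrl was -2.19 ± 0.43 (SE, edgeR adjusted P = 0.000881), the largest fall of the 35 genes. In YHY against Model it was -0.85 ± 0.41 (SE, edgeR adjusted P = 0.184), and the gene was called lower without YHY 4, at -1.44 (edgeR adjusted P = 0.0144). Acsm1 (ENSMUSG00000033533, chr7:119206249-119261738) had 442, 528, 451 and 274 CPM in Ctrl 1 to 4, 236, 315, 309.6 and 347 CPM in Model 1 to 4, and 130.2, 229, 117 and 190.2 CPM in YHY 1 to 4. Every YHY mouse was below every Model mouse, and Ctrl 4 lay inside the Model range. YHY against Model gave a log2 fold change of -0.86 ± 0.24 (SE, edgeR adjusted P = 0.0258), and the call was lost when Model 2, Model 3, Model 4, YHY 1 and YHY 3 were left out in turn, with log2 fold changes of -0.85 to -0.72 and edgeR adjusted P of 0.0548 to 0.0675. Model against Ctrl gave -0.49 (edgeR adjusted P = 0.111), and -0.71 (edgeR adjusted P = 0.0205) without Ctrl 4.

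Acsl1 (ENSMUSG00000018796, chr8:46924074-46989088), the main long-chain synthetase of tissues that oxidise fat, had 93.2, 76.2, 88.0 and 148 CPM in Ctrl 1 to 4, 117, 102, 101 and 92.5 CPM in Model 1 to 4, and 133, 167, 237 and 321 CPM in YHY 1 to 4. All 4 YHY mice were above all 4 Model mice, with YHY 4 the highest, and the Model mice lay within the Ctrl range. Its log2 fold change in YHY against Model was 1.05 ± 0.25 (SE, edgeR adjusted P = 0.0137), the largest rise among the called genes, and the call held in all 21 alternatives. Model against Ctrl gave 0.03 (edgeR adjusted P = 0.945), a value that turned negative with library size alone (-0.42). Of the other long-chain synthetases, Acsl3, which also serves lipid droplet growth, fell in Model against Ctrl by 0.87 on the log2 scale (edgeR adjusted P = 0.00169), with 10.9 to 13.5 CPM in Ctrl and 5.67 to 7.90 CPM in Model. Acsl5 fell by 0.53 (edgeR adjusted P = 0.0101), with 45.5 to 67.5 and 33.2 to 42.1 CPM. Acsl4, which prefers arachidonate, was not called at -0.42 (edgeR adjusted P = 0.0572), but was called lower when Ctrl 2, Ctrl 3, Model 1, YHY 2 and YHY 3 were left out in turn, with log2 fold changes of -0.53 to -0.43 and edgeR adjusted P of 0.0296 to 0.0496. Acsl3, Acsl4 and Acsl5 were not called in YHY against Model, at 0.10, 0.35 and -0.13. The 6 synthetases had a median of -0.02 in that comparison, which turned positive with upper-quartile scaling (0.0015) and with the genes of the mitochondrial genome removed (0.0011).

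Cpt1a and Cpt1b make acylcarnitine at the outer membrane, Slc25a20 carries it inward, Cpt2 returns the acyl group to coenzyme A, Crat acts on acetyl groups, and Mlycd breaks down malonyl-CoA, the inhibitor of Cpt1. Of these 6 genes 2 were lower in Model than in Ctrl (33.3%, beside 18.5% of all genes tested) and none was higher. The median log2 fold change was -0.43, negative under all scalings tried. Mlycd showed the larger fall, with 64.8 to 92.0 CPM in the Ctrl mice, 27.7 to 42.4 in the Model mice and 22.5 to 52.4 in the YHY mice. Its log2 fold change in Model against Ctrl was -1.19 ± 0.22 (SE, edgeR adjusted P = 0.000544). Crat was lower by less, at -0.44 (edgeR adjusted P = 0.0470), and lost its call when Ctrl 2, Ctrl 3, Ctrl 4, Model 2, Model 3, Model 4 and YHY 3 were left out in turn, with log2 fold changes of -0.49 to -0.39 and edgeR adjusted P of 0.0533 to 0.124. Cpt2 (ENSMUSG00000028607, chr4:107761178-107780807), the most abundant of the 6 per kilobase, had 127, 172, 148 and 129 CPM in Ctrl 1 to 4, 136, 87.7, 123 and 84.7 CPM in Model 1 to 4, and 71.1, 98.96, 96.8 and 160.1 CPM in YHY 1 to 4. Model 1 lay inside the Ctrl range and the other Model mice below it, and YHY 4 lay above every Model mouse. Model against Ctrl gave -0.42 ± 0.23 (SE, edgeR adjusted P = 0.160), and -0.61 (edgeR adjusted P = 0.0491) without Model 1. Cpt1a showed the same dependence, at -0.35 (edgeR adjusted P = 0.159) with all mice and -0.56 (edgeR adjusted P = 0.0230) without Model 1. Slc25a20 was at 37.2 to 46.2 CPM in Ctrl and 39.8 to 48.6 CPM in Model and was not called (0.04). Over the 21 alternatives the value of Slc25a20 ran from -0.40 to 0.14, so it has no set direction. Cpt1b was too low for a comparison, with a log2 fold change of -0.79 ± 0.96 (SE). YHY against Model gave no call among the 6 genes by edgeR's test, none at an unadjusted P under 0.05 and none by DESeq2, with log2 fold changes from -0.16 (Crat) to 0.26 (Slc25a20) apart from Cpt1b, and a median of 0.09.

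Acyl-CoA dehydrogenases take the first pair of electrons in each round, and are named by chain length from short (Acads) over medium (Acadm) and long (Acadl) to very long (Acadvl). Of the 7 genes of the family, 6 were lower (85.7%, beside 18.5% of all genes tested) and none was higher in Model than in Ctrl. The median log2 fold change was -0.96, negative under all scalings tried. Acadm (ENSMUSG00000062908, chr3:153627994-153650269) had 722, 697, 842 and 759.8 CPM in Ctrl 1 to 4, 267, 214, 229.9 and 218 CPM in Model 1 to 4, and 168, 201, 203 and 228 CPM in YHY 1 to 4. Every Ctrl mouse stood far above every db/db mouse, and the Model and YHY mice overlapped. The log2 fold change in Model against Ctrl was -1.70 ± 0.16 (SE, edgeR adjusted P = 2.85e-06), and in YHY against Model -0.21 ± 0.15 (SE, edgeR adjusted P = 0.383). Acads (ENSMUSG00000029545, chr5:115248358-115257405) had 142, 151, 142 and 119 CPM in Ctrl 1 to 4, 52.9, 43.7, 53.8 and 45.8 CPM in Model 1 to 4, and 22.9, 24.1, 29.1 and 32.97 CPM in YHY 1 to 4. The 3 groups did not overlap, with YHY below Model and Model below Ctrl. Acads fell in Model against Ctrl, at -1.50 ± 0.15 (SE, edgeR adjusted P = 6.35e-06), and was lower again in YHY against Model, at -0.85 ± 0.15 (SE, edgeR adjusted P = 0.00274), and both calls held in all 21 alternatives. Acadl was lower in Model than in Ctrl, at -0.96 (edgeR adjusted P = 0.00140), with 238 to 306 CPM in the Ctrl mice, 116 to 177 in the Model mice and 108 to 192 in the YHY mice.

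The remaining genes of the family were less abundant. Acadvl was lower in Model than in Ctrl by a smaller margin, at -0.67 (edgeR adjusted P = 0.0446), with Ctrl 2 inside the Model range, and its call was lost when Ctrl 3, Ctrl 4, Model 1, Model 2, Model 3, Model 4 and YHY 3 were left out in turn, with log2 fold changes of -0.75 to -0.45 and edgeR adjusted P of 0.0504 to 0.135. Acad10 and Acad11, whose products handle other acyl groups such as hydroxy acids, fell by 0.75 and 1.30 on the log2 scale (edgeR adjusted P = 0.000667 and 1.27e-05). None of Acadl, Acadvl, Acad10 and Acad11 was called in YHY against Model, where their log2 fold changes were 0.13, 0.41, 0.08 and 0.15. Acad12 (ENSMUSG00000042647, chr5:121734838-121757001), a close relative of Acad10, had 17.3, 19.3, 23.04 and 16.3 CPM in Ctrl 1 to 4, 8.63, 20.6, 18.2 and 19.6 CPM in Model 1 to 4, and 7.21, 9.51, 10.2 and 8.41 CPM in YHY 1 to 4. Model 1 was low among the Model mice and lay inside the YHY range, while the other Model mice lay above every YHY mouse. YHY against Model gave -0.92 ± 0.23 (SE, edgeR adjusted P = 0.0176), and the call was lost when Model 2, Model 3 and Model 4 were left out in turn, with log2 fold changes of -0.88 to -0.81 and edgeR adjusted P of 0.0503 to 0.0547, and with only the 8 mice compared. Acad12 was the 1 gene of the family not called in Model against Ctrl, at -0.18 (edgeR adjusted P = 0.557). With 2 of the 7 lower in YHY against Model (28.6%, beside 7.62% of all genes tested), the median of the family was 0.08.

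The next steps add water, oxidise the hydroxy group and split off acetyl-CoA, all done for long chains by the trifunctional protein of Hadha and Hadhb. For shorter chains Hadh oxidises the hydroxy group and Acaa2 is the thiolase, and the list holds no separate gene for adding water. Model mice had 3 of these 4 genes lower than Ctrl mice (75%, beside 18.5% of all genes tested) and none higher. The median log2 fold change was -0.81, negative under all scalings tried. Hadh (ENSMUSG00000027984, chr3:131027068-131065750) had 300.2, 317, 378 and 250.4 CPM in Ctrl 1 to 4, 178, 131, 163 and 134 CPM in Model 1 to 4, and 60.8, 71.1, 70.4 and 103 CPM in YHY 1 to 4. The groups did not overlap in either comparison, with Ctrl highest and YHY lowest. The log2 fold change was -1.04 ± 0.19 (SE, edgeR adjusted P = 0.000522) for Model against Ctrl and -0.99 ± 0.19 (SE, edgeR adjusted P = 0.00419) for YHY against Model. Both calls held in all 21 alternatives, and the fall in YHY against Model was the largest of the 35 genes there. Hadhb fell in Model against Ctrl at -1.15 (edgeR adjusted P = 0.000338), with 108 to 140.4 CPM in Ctrl and 46.9 to 64.1 CPM in Model. Hadha was lower at -0.58 (edgeR adjusted P = 0.0206), with 81.1 to 151 and 64.9 to 81.4 CPM, and lost its call without Ctrl 4 and Model 3 in turn, with log2 fold changes of -0.53 to -0.44 and edgeR adjusted P of 0.0610 to 0.0667. Neither was called in YHY against Model (0.20 for Hadha and 0.10 for Hadhb). Acaa2 (ENSMUSG00000036880, chr18:74912268-74939279), the most abundant of the 4 per kilobase, had 93.9, 121, 134 and 137 CPM in Ctrl 1 to 4, 226, 137, 152 and 99.9 CPM in Model 1 to 4, and 99.98, 99.7, 122 and 206 CPM in YHY 1 to 4. Model 1 and Model 3 lay above the Ctrl range, with Model 1 the highest mouse of all, and Model 2 and Model 4 lay inside it. It was called in neither comparison, at 0.34 (edgeR adjusted P = 0.319) in Model against Ctrl, which turned to -0.07 with library size alone, and -0.22 (edgeR adjusted P = 0.625) in YHY against Model.

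Unsaturated chains need isomerases (Eci1 and Eci2), a reductase (Decr1) and a dienoyl-CoA isomerase (Ech1) to pass through the spiral. Of these 4 genes 1 was lower in Model than in Ctrl and none was higher. That is 25%, close to the 18.5% lower among all genes tested. The median log2 fold change of the 4 was -0.50, negative under all scalings tried. Ech1 (ENSMUSG00000053898, chr7:28524642-28531672), the most abundant of the 35 genes per kilobase over all mice, had 431, 552, 543 and 521 CPM in Ctrl 1 to 4, 459.6, 310.1, 346 and 298 CPM in Model 1 to 4, and 261, 265, 323 and 449 CPM in YHY 1 to 4. Model 1 lay inside the Ctrl range and the other Model mice below it. Model against Ctrl gave -0.53 ± 0.20 (SE, edgeR adjusted P = 0.0462), and the call was lost when Ctrl 2, Ctrl 3, Ctrl 4, Model 2, Model 3, Model 4 and YHY 3 were left out in turn, with log2 fold changes of -0.57 to -0.46 and edgeR adjusted P of 0.0540 to 0.128. Decr1 and Eci1 stood just outside the limit, at -0.55 (edgeR adjusted P = 0.0765) and -0.47 (edgeR adjusted P = 0.0791). Decr1 was called lower without Model 1 and YHY 4 in turn, with log2 fold changes of -0.80 to -0.55 and edgeR adjusted P of 0.0126 to 0.0185, and Eci1 without Ctrl 1, Model 1 and YHY 4, with log2 fold changes of -0.64 to -0.47 and edgeR adjusted P of 0.0227 to 0.0497. Eci2 was not called, at -0.04, with 61.4 to 76.5 CPM in Ctrl and 53.4 to 77.6 CPM in Model. Its value ran from -0.47 to 0.06 over the 21 alternatives. In YHY against Model the log2 fold changes were -0.12 (Ech1), -0.26 (Decr1), 0.12 (Eci1) and 0.03 (Eci2), and edgeR's test called none of them, nor did DESeq2, and none had an unadjusted P under 0.05. Decr1 in YHY 4 was 143 CPM, where the other YHY mice had 63.9 to 75.5 CPM. Without it Decr1 was called lower, at -0.59 (edgeR adjusted P = 0.0450).

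Electrons from the acyl-CoA dehydrogenases pass to the electron transfer flavoprotein, a dimer of Etfa and Etfb, and from it to ubiquinone through Etfdh. The 3 genes did not move together. Etfa was lower in Model than in Ctrl, with 239 to 321 CPM in the Ctrl mice, 87.3 to 151 in the Model mice and 62.0 to 102 in the YHY mice, at -1.31 ± 0.20 (SE, edgeR adjusted P = 0.000124). Etfdh was lower too, with 60.1 to 86.7, 29.9 to 41.0 and 22.9 to 40.1 CPM, at -1.17 ± 0.18 (SE, edgeR adjusted P = 0.000138). Etfb (ENSMUSG00000004610, chr7:43093507-43107224) went the other way, with 62.2, 103, 66.2 and 53.5 CPM in Ctrl 1 to 4, 147, 141, 167 and 126 CPM in Model 1 to 4, and 83.4, 93.8, 77.5 and 133 CPM in YHY 1 to 4. Every Model mouse was above every Ctrl mouse, YHY 1, YHY 2 and YHY 3 lay below every Model mouse but not above Ctrl 2, and YHY 4 lay inside the Model range. The log2 fold change of Etfb in Model against Ctrl was 1.03 ± 0.21 (SE, edgeR adjusted P = 0.00137), and it stayed positive and called with library size alone, while the median of the 3 genes was -1.17 and stayed negative under all scalings tried. In YHY against Model edgeR's test called none of the 3, though 2 were lower at an unadjusted P under 0.05 and DESeq2 called Etfb, with -0.58 (edgeR adjusted P = 0.0796) for Etfb, -0.49 (edgeR adjusted P = 0.106) for Etfa and -0.09 for Etfdh. Etfb was called lower without Ctrl 2 and YHY 4 in turn, with log2 fold changes of -0.78 to -0.58 and edgeR adjusted P of 0.0185 to 0.0435, and Etfa without YHY 4, at -0.65 (edgeR adjusted P = 0.0346).

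The opposite moves of the 2 subunits show as a ratio within each mouse, which needs no scaling between libraries. These pairs were chosen after the values were seen, so the ratios are a description with no test. Per kilobase, Etfb over Etfa was 0.381, 0.593, 0.326 and 0.353 in Ctrl 1 to 4, 1.53, 2.30, 2.49 and 2.27 in Model 1 to 4, and 2.12, 2.00, 1.61 and 2.06 in YHY 1 to 4. All Ctrl mice were under 1 and all db/db mice above 1, with means of 0.413 ± 0.122, 2.15 ± 0.421 and 1.95 ± 0.230 in Ctrl, Model and YHY (SD, 4 mice each). Etfb over Etfdh was 6.42 ± 3.16, 28.2 ± 5.65 and 20.0 ± 3.69 in the same order. For the trifunctional protein, Hadhb over Hadha was 1.50 ± 0.212, 0.983 ± 0.159 and 0.897 ± 0.148 in Ctrl, Model and YHY. Every Ctrl mouse (1.23 to 1.75) was above every db/db mouse (0.703 to 1.16) in that ratio. Parts of Etfb and Hadhb share their sequence with other genes, as described below, so the levels of both are uncertain.

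Thioesterases release free fatty acid and coenzyme A from acyl-CoA, Acot1 in the cytosol, Acot2 and Acot13 in mitochondria, and Ucp2 is a carrier of the inner membrane. Model mice had 2 of these 4 genes lower than Ctrl mice and 1 higher. These are 50% and 25%, beside 18.5% and 19.6% of all genes tested. The median log2 fold change of the 4 was -0.37, negative under all scalings tried. Acot2 (ENSMUSG00000021226, chr12:84034635-84040647) had 16.3, 23.4, 19.2 and 24.2 CPM in Ctrl 1 to 4, 48.6, 40.2, 47.8 and 36.9 CPM in Model 1 to 4, and 37.7, 39.0, 69.6 and 68.1 CPM in YHY 1 to 4. Every db/db mouse was above every Ctrl mouse. Acot2 rose in Model against Ctrl at 1.06 ± 0.21 (SE, edgeR adjusted P = 0.00107), and with library size alone the change was positive with an edgeR adjusted P of 0.0539, the highest of the 21 alternatives. Acot13 (ENSMUSG00000006717, chr13:25001931-25015523), the most abundant of the 4 per kilobase, had 130.4, 182, 132 and 116 CPM in Ctrl 1 to 4, 106, 63.4, 85.6 and 63.5 CPM in Model 1 to 4, and 34.2, 47.2, 49.8 and 69.2 CPM in YHY 1 to 4. All Model mice were below all Ctrl mice, and YHY 1, YHY 2 and YHY 3 were below all Model mice. It was lower in Model than in Ctrl, at -0.81 ± 0.22 (SE, edgeR adjusted P = 0.00917). YHY against Model gave -0.67 (edgeR adjusted P = 0.0584), a fall that DESeq2 called, and -0.87 (edgeR adjusted P = 0.0155) without YHY 4.

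Acot1 had 34.97, 31.8, 41.2 and 96.8 CPM in Ctrl 1 to 4, 15.9, 29.5, 24.5 and 26.0 CPM in Model 1 to 4, and 12.9, 21.3, 33.4 and 47.9 CPM in YHY 1 to 4. Ctrl 4 was the highest mouse by far, and the other Ctrl mice stood just above the highest Model mouse. The log2 fold change in Model against Ctrl was -1.10 ± 0.38 (SE, edgeR adjusted P = 0.0322). Without Ctrl 4 it was -0.64 (edgeR adjusted P = 0.131), and the call was also lost without Model 1, Model 3 and Model 4 in turn, with log2 fold changes of -1.14 to -0.64 and edgeR adjusted P of 0.0601 to 0.131 over the 4. Per kilobase, Acot2 over Acot1 was 0.856 ± 0.355, 3.47 ± 1.40 and 3.68 ± 1.13 in Ctrl, Model and YHY (SD, 4 mice each), another pair chosen after the values were seen. In YHY against Model neither Acot1 (0.27) nor Acot2 (0.31) was called. Ucp2 (ENSMUSG00000033685, chr7:100142544-100151227) had 73.9, 70.8, 74.2 and 104 CPM in Ctrl 1 to 4, 105, 85.2, 72.8 and 74.8 CPM in Model 1 to 4, and 227, 107, 146 and 101 CPM in YHY 1 to 4. YHY 1 was the highest mouse by far, and YHY 4 lay inside the Model range. Ucp2 rose in YHY against Model at 0.78 ± 0.23 (SE, edgeR adjusted P = 0.0375), but without YHY 1 the value was 0.48 (edgeR adjusted P = 0.126). The call was lost when Ctrl 1, Ctrl 3, Model 2, Model 3, Model 4, YHY 1 and YHY 3 were left out in turn, with log2 fold changes of 0.48 to 0.78 and edgeR adjusted P of 0.0607 to 0.126, with library size alone and with only the 8 mice compared. Model against Ctrl gave 0.06 (edgeR adjusted P = 0.851), which turned negative with library size alone (-0.37).

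Bdh1 (ENSMUSG00000046598, chr16:31241098-31277719) interconverts acetoacetate and beta-hydroxybutyrate, and had 154, 156, 188 and 135 CPM in Ctrl 1 to 4, 38.7, 45.7, 52.2 and 62.9 CPM in Model 1 to 4, and 33.6, 26.6, 41.4 and 31.8 CPM in YHY 1 to 4. Every Ctrl mouse was far above every db/db mouse, and YHY 1, YHY 2 and YHY 4 were below every Model mouse, with YHY 3 inside the Model range. Model against Ctrl gave -1.67 ± 0.18 (SE, edgeR adjusted P = 1.09e-05), a call that held in all 21 alternatives. In YHY against Model the value was -0.58 ± 0.18 (SE, edgeR adjusted P = 0.0415). That call held in 8 of 21 alternatives, was lost with upper-quartile scaling and with library size alone among others, and was lost when any of Ctrl 1, Ctrl 2, Ctrl 3, Model 2, Model 3, Model 4, YHY 1, YHY 2 and YHY 4 was left out, with log2 fold changes of -0.62 to -0.45 and edgeR adjusted P of 0.0512 to 0.128.

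**Figure D4:**
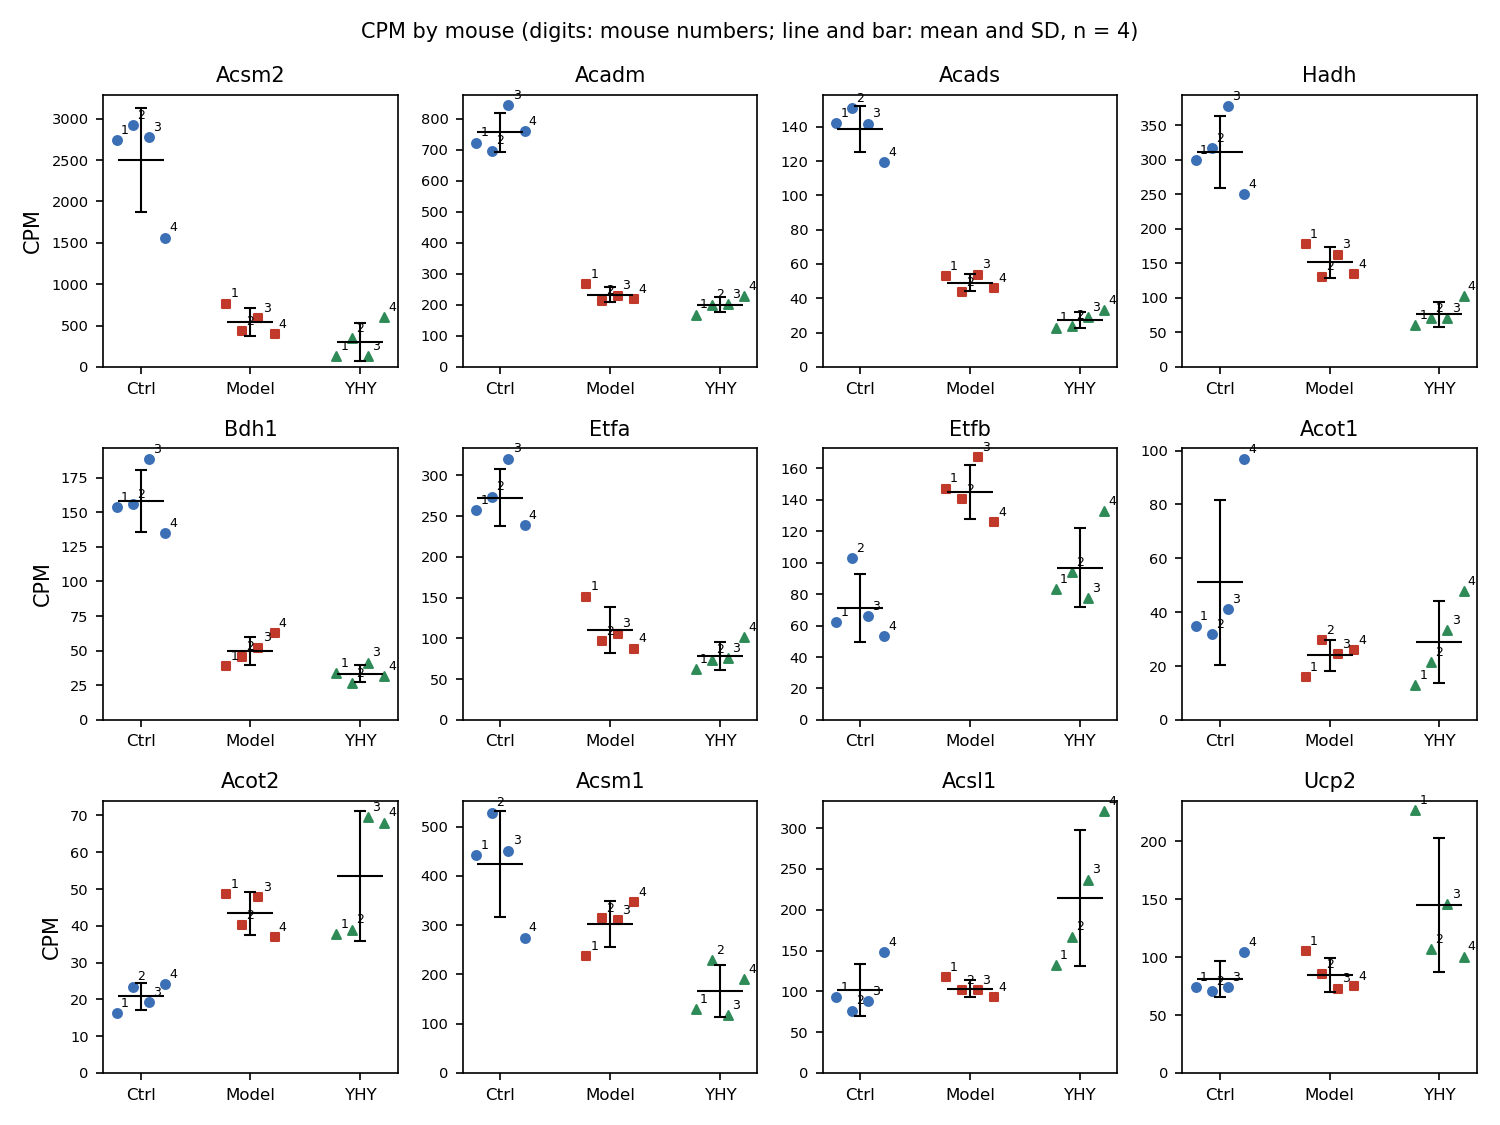
Each panel is 1 of 12 of the 35 genes, each point 1 mouse with its number, the line and bar are mean and SD (n = 4), and the y axis is the level in TMM-scaled CPM. Acads falls from 119 to 151 CPM in Ctrl to 43.7 to 53.8 in Model and 22.9 to 32.97 in YHY, and Acsl1 in YHY (133 to 321 CPM) lies above Model (92.5 to 117 CPM).

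Some of these levels rest on reads that other genes can share, and how the authors' counting treated such reads is not stated. In windows of 100 bases, 10 of the 35 genes share sequence with another annotated gene, 7 of them over more than 5% of their windows. This search was made after the values were seen. Etfb lies over a same-strand gene, Etfbl, and shares 65.2% of its windows with it, and Cpt1b lies over Gm44502 and shares 91.1%. Both partners had 0 counts in all 12 mice, so the low count of Cpt1b cannot be read as a low level. Hadhb shares 52.8% of its windows with its pseudogene Hadhb-ps, which had 162 to 1105 counts per mouse. Acot1 shares 16.5% of its windows with Acot2 and 21.9% with any of Acot2 to Acot6, Acot2 shares 17.1% with Acot1, and Acad10 and Acad12 share 10.4% and 10.2%. Acsl3 shares 2.80% with Utp14b, which lies on the same strand over it and had 13.6% of its counts. Utp14b had 336, 39 and 82 counts in Ctrl, Model and YHY, beside 1980, 663 and 721 for Acsl3. How reads of this pair were assigned is not stated, so the size of the fall of Acsl3 is uncertain. On the opposite strand, 12 of the 35 genes overlap another gene, and in 3 the partner had more than 10% of the gene's counts. These were Acsl5 with Zdhhc6 (99.98%), Acadvl with Dvl2 (20.7%) and Acsm1 with Gm39079 (20.1%). It is not stated whether strand was used in counting, so reads of these pairs cannot be told apart and the fall of Acsl5 is uncertain. Zdhhc6 had 8567, 3885 and 2914 counts in Ctrl, Model and YHY, beside 8544, 3569 and 3256 for Acsl5.

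Genes outside the 35 were followed for comparison. Among those for ketone bodies, Acat1 and Oxct1, which handle acetoacetyl-CoA and activate acetoacetate, were lower in Model than in Ctrl, at -1.88 (edgeR adjusted P = 2.24e-06) and -1.50 (edgeR adjusted P = 1.08e-05). Both were lower again in YHY against Model, with 352 to 456 CPM of Oxct1 in Model and 219.8 to 289 CPM in YHY. Their log2 fold changes there were -0.64 (edgeR adjusted P = 0.0186) and -0.75 (edgeR adjusted P = 0.00741), and with library size alone neither was called. Acat1 lost its call without Model 3, at -0.63 (edgeR adjusted P = 0.0546).

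Peroxisomes shorten very long chains by a parallel route. Ehhadh, the bifunctional enzyme, had 346 to 446 CPM in Ctrl and 68.8 to 78.5 CPM in Model, at -2.45 (edgeR adjusted P = 6.50e-05). Crot, which makes medium-chain acylcarnitine for export to mitochondria, was lower at -2.01 (edgeR adjusted P = 5.63e-06). The membrane transporter Abcd3 was lower in Model than in Ctrl, at -1.45 (edgeR adjusted P = 8.35e-05), and higher in YHY than in Model, at 0.68 (edgeR adjusted P = 0.0383). The latter was lost when Ctrl 1, Ctrl 3, Model 2, Model 3, Model 4, YHY 2 and YHY 4 were left out in turn, and without YHY 4 it was 0.42 (edgeR adjusted P = 0.0992). That rise held in 10 of 21 alternatives and was 0.64 (edgeR adjusted P = 0.0793) with library size alone. The thiolase Scp2 was lower in both comparisons, at -1.10 (edgeR adjusted P = 0.00149) and -0.75 (edgeR adjusted P = 0.0389), and lost the latter call without Model 1, Model 2, Model 3, YHY 1, YHY 2 and YHY 3 in turn, with log2 fold changes of -0.81 to -0.59 and edgeR adjusted P of 0.0537 to 0.103, and the call held in 12 of 21 alternatives. Acot8 lost its lower call in Model against Ctrl without Model 2 and Model 3 in turn, with log2 fold changes of -0.65 to -0.57 and edgeR adjusted P of 0.0515 to 0.0588.

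Of 12 genes for the entry and handling of fatty acids, 5 were lower and 2 higher in Model than in Ctrl. These are 41.7% and 16.7%, beside 18.5% and 19.6% of all genes tested. The median of the 12 genes was -0.21, negative under all scalings tried. In YHY against Model 3 were higher (25%, beside 5.63% of all genes tested), with a median of 0.29. No gene of this list was called lower in YHY than in Model by edgeR's test, where 2 were lower at an unadjusted P under 0.05 (Cd36 and Slc27a4) and DESeq2 called both lower. Their log2 fold changes there were -0.76 (edgeR adjusted P = 0.0502) and -0.58 (edgeR adjusted P = 0.0515), and they were called lower in 8 of 21 and 6 of 21 alternatives. With library size alone 1 gene of the list was higher and 1 lower in YHY against Model. Cd36, the fatty acid translocase, had 204 to 361 CPM in Ctrl and 37.4 to 50.9 CPM in Model, at -2.85 (edgeR adjusted P = 2.38e-06). Lpl, the lipase that frees fatty acids from lipoproteins, was lower at -1.83 (edgeR adjusted P = 3.64e-05). The transporter Slc27a1 was higher in both comparisons, with 14.9 to 20.2, 31.6 to 48.8 and 52.0 to 76.4 CPM in Ctrl, Model and YHY, at 1.23 (edgeR adjusted P = 5.77e-05) and 0.68 (edgeR adjusted P = 0.0144). Its latter call was lost without Model 3, at 0.64 (edgeR adjusted P = 0.0535). The hormone-sensitive lipase Lipe was higher in Model than in Ctrl, at 0.84 (edgeR adjusted P = 0.00110), but with library size alone it was 0.41 (edgeR adjusted P = 0.114). The triglyceride lipase Pnpla2 was higher in YHY than in Model, at 0.57 (edgeR adjusted P = 0.0159), or 0.55 (edgeR adjusted P = 0.0558) without Model 3 and 0.55 (edgeR adjusted P = 0.0712) with library size alone. The lipid droplet protein Plin2 was lower in Model than in Ctrl, at -1.05 (edgeR adjusted P = 0.00212), and higher in YHY than in Model, at 0.74 (edgeR adjusted P = 0.0443). That rise held in 7 of 21 alternatives, was lost without any of Ctrl 1, Ctrl 2, Ctrl 3, Ctrl 4, Model 1, Model 2, Model 3, Model 4, YHY 2 and YHY 4, and was 0.47 (edgeR adjusted P = 0.123) without YHY 4. Slc27a2 and Slc27a4 were lower in Model than in Ctrl by less, at -0.53 (edgeR adjusted P = 0.0329) and -0.55 (edgeR adjusted P = 0.0300), and lost their calls without Ctrl 2, Ctrl 3, Model 2 and Model 4 and without Ctrl 4, Model 2 and Model 3 in turn, at edgeR adjusted P of 0.0545 to 0.0909, and with upper-quartile scaling, at -0.42 (edgeR adjusted P = 0.0734) and -0.44 (edgeR adjusted P = 0.0718).

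Among 19 regulators of the pathway, 5 were lower and 3 higher in Model than in Ctrl. Lower calls were 26.3% and higher calls 15.8%, near the 18.5% and 19.6% among all genes tested. The median of the 19 was 0.18 and turned to -0.29 with library size alone, so no direction is given for the list. Ppara itself was at 2.52 to 4.21 CPM in the Ctrl mice, 3.55 to 5.53 in the Model mice and 4.84 to 10.3 in the YHY mice and was called in neither comparison (0.46 and 0.54). Its partner Rxra was lower in both, at -0.47 (edgeR adjusted P = 0.0329) and -0.62 (edgeR adjusted P = 0.0239), and lost the calls without Ctrl 2, Model 2 and Model 4 in Model against Ctrl and without Model 1, Model 3, YHY 1 and YHY 3 in YHY against Model, at edgeR adjusted P of 0.0532 to 0.111. With upper-quartile scaling its value in Model against Ctrl was -0.37 (edgeR adjusted P = 0.0715). The coactivator Ppargc1b was higher in Model than in Ctrl, at 1.72 (edgeR adjusted P = 0.000128), while Ppargc1a was not called (0.33). The nuclear receptors Ppard and Nr1h3 were lower, at -1.30 (edgeR adjusted P = 0.00344) and -0.69 (edgeR adjusted P = 0.00268). Prkaa2, a catalytic subunit of AMP-activated kinase, was lower in both comparisons, at -0.91 (edgeR adjusted P = 0.000570) and -0.73 (edgeR adjusted P = 0.0114), the latter -0.72 (edgeR adjusted P = 0.0611) with library size alone. The corepressor Ncor1 was lower in Model than in Ctrl, at -0.49 (edgeR adjusted P = 0.00696), and higher in YHY than in Model, at 0.62 (edgeR adjusted P = 0.00670), with 82.7 to 90.8, 58.5 to 68.0 and 83.5 to 110.0 CPM in Ctrl, Model and YHY.

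Acacb, which makes the malonyl-CoA that blocks Cpt1, was higher in Model than in Ctrl at 0.75 (edgeR adjusted P = 0.0161), and lost its call without Ctrl 1, Ctrl 2, Ctrl 3 and Model 4 in turn, with log2 fold changes of 0.60 to 0.67 and edgeR adjusted P of 0.0526 to 0.0689. With library size alone it was 0.28 (edgeR adjusted P = 0.412). The corepressor Nrip1 was higher at 0.50 (edgeR adjusted P = 0.0211), and lost its call without Ctrl 1, Ctrl 3 and Model 1 in turn, with log2 fold changes of 0.35 to 0.48 and edgeR adjusted P of 0.0662 to 0.125. Library size alone gave 0.08 (edgeR adjusted P = 0.804), so the rises of Acacb and Nrip1 depend on the scaling. The deacetylase Sirt1 was higher in YHY than in Model, with 13.2 to 13.7 CPM in Model and 16.1 to 42.8 CPM in YHY. Its log2 fold change was 0.95 (edgeR adjusted P = 0.0146), and 0.59 (edgeR adjusted P = 0.0227) without YHY 4. Esrra was lower in YHY than in Model, at -0.53 (edgeR adjusted P = 0.0213), and lost its call without Model 3, Model 4 and YHY 1 in turn, with log2 fold changes of -0.50 to -0.46 and edgeR adjusted P of 0.0545 to 0.0719, and with library size alone, at -0.53 (edgeR adjusted P = 0.0886). The regulators had 2 higher and 3 lower in YHY against Model, with a median of -0.09. These are 10.5% and 15.8%, beside 5.63% and 7.62% of all genes tested.

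PPAR-alpha is also known to induce Ehhadh, Plin2 and Acot1, which were lower in Model than in Ctrl as given above, and Cpt1a, which was not called. Cyp4a10, Cyp4a31 and Vnn1 were not called either, at 0.23 (edgeR adjusted P = 0.706), -0.34 (edgeR adjusted P = 0.320) and -0.27 (edgeR adjusted P = 0.517). Of other genes that it induces, Pdk4, the kinase that holds back pyruvate oxidation, had 8.43, 19.9, 14.2 and 9.33 CPM in Ctrl 1 to 4, 9.08, 11.2, 4.11 and 9.32 CPM in Model 1 to 4, and 28.0, 29.2, 76.2 and 68.1 CPM in YHY 1 to 4. Every YHY mouse was above every Model mouse. Its log2 fold change in YHY against Model was 2.58 ± 0.38 (SE, edgeR adjusted P = 0.000884), a call that held in all 21 alternatives, and in Model against Ctrl it was not called, at -0.62 (edgeR adjusted P = 0.198). Pdk4 and Cyp4a31 were called lower in that comparison with library size alone, at -1.01 (edgeR adjusted P = 0.0378) and -0.76 (edgeR adjusted P = 0.0398). Angptl4, an inhibitor of lipoprotein lipase, was higher in both comparisons, with 14.2 to 52.7, 74.3 to 87.3 and 116 to 201 CPM in Ctrl, Model and YHY, at 1.43 (edgeR adjusted P = 0.00171) and 0.94 (edgeR adjusted P = 0.0496). The latter call was lost without any of Ctrl 3, Model 1, Model 2, Model 3, Model 4, YHY 2, YHY 3 and YHY 4, with log2 fold changes of 0.80 to 0.97 and edgeR adjusted P of 0.0652 to 0.114. Txnip was higher in Model than in Ctrl, at 0.70 (edgeR adjusted P = 0.0144), and lost its call without Ctrl 1 and Ctrl 4 in turn, with log2 fold changes of 0.47 to 0.59 and edgeR adjusted P of 0.0592 to 0.0662. Its value was 0.29 (edgeR adjusted P = 0.301) with library size alone. Cyp4a14, an omega-hydroxylase, was at 266 CPM in Ctrl 4 and 3.46 to 11.3 CPM in the other Ctrl mice. It was not called in Model against Ctrl with all mice, at 0.59 ± 0.99 (SE, edgeR adjusted P = 0.675), and was called higher in 2 of 21 alternatives, 1 of them without Ctrl 4, at 3.70 (edgeR adjusted P = 0.00106). Over the alternatives its values ran from -0.10 to 3.70.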

How the data were processed

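Counts of reads per gene, deposited by the authors for 12 mice, were the values used. Per the labels, the authors ran FastQC 0.11.9, Trimmomatic 0.39, HISAT2 2.2.1 against GRCm39 (mm39), SAMtools 1.12 and featureCounts 2.0.1 of Subread, then DESeq2 1.34.0 in R 4.1.2. The annotation release and the strand setting of counting are not stated. The authors' comparison tables also give signal per mouse, normalised counts in 12 columns, which were not used here, nor were their fold changes, p-values and KEGG tables of enriched pathways. The deposited group means of those signal columns take 3 mice per group, without Ctrl 2, Model 1 and YHY 4. edgeR 4.0.16 in R 4.3.3 (with limma 3.58.1, and data.table at 1.17.8) fitted all 12 mice in 1 model by group, after filterByExpr and TMM scaling (factors 0.720 to 1.35), with a 2-sided quasi-likelihood test, Benjamini-Hochberg adjustment over 17431 genes and a limit of 0.05. Standard errors are the log2 fold change over the square root of F. CPM per kilobase used the deposited gene length. The steps were tested on simulated data. Alternatives were DESeq2 1.42.0, other scalings and filters, only the 8 mice compared, the 9 mice of the authors' means, a replicate block, the study's limits (fold change over 1.2, unadjusted P under 0.05) and leaving out each mouse. Full values per mouse are given for the 4 largest rises and 4 largest falls called in each comparison and for the most abundant gene of each role per kilobase. Values of other genes that are given by mouse (Acot1, Pdk4) were chosen after they were seen. The 35 genes, the other lists and the markers were chosen with earlier results of these data known. Some genes of the other lists, and totals over the lists that hold them, are not reported here. Promoters are from RefSeq, and shared windows from GENCODE transcripts of the same earlier build, handled in Python 3.11.15 with pandas 2.3.3 and numpy 2.4.6, and matplotlib 3.10.9 drew the figures. Gene coordinates are those deposited (GRCm39), and promoter coordinates are GRCm38.p6.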

Additional observations from a re-analysis of the deposited data

Results flagged for a closer look

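In 114 checks of 4 mice, 1 mouse stood apart from the other 3 in 6. The limit used is one that chance passes in about 1 in 20 single checks. The checks reuse the same mice over genes that can vary together, so the 6 cannot be compared with that rate. Acsm2, Acot1 and Ucp2 were flagged in the same mouse, Ctrl 4. Acsm2 in Ctrl 4 was at 1564 CPM, with 2741 to 2926 CPM in the other Ctrl mice. Acot1 in Ctrl 4 was at 96.8 CPM, with 31.8 to 41.2 CPM in the others. Ucp2 in Ctrl 4 was at 104.0 CPM, with 70.8 to 74.2 CPM in the others. Decr1 in YHY 4 was at 143 CPM, with 63.9 to 75.5 CPM in the other YHY mice. The share of counts from the mitochondrial genome was 22.7% in Ctrl 2, with 18.4 to 18.6% in the other Ctrl mice, and 64.6% in YHY 2, with 53.8 to 54.6% in the other YHY mice.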

How the results depend on the processing

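No called gene of the 35 changed sign in the 21 alternatives. In Model against Ctrl the median of the 35 genes was -0.47 with upper-quartile scaling, -1.03 with library size alone, -0.75 in 9 mice, and -0.72 to -0.56 leaving out each mouse. With library size alone, 1 of the 35 was higher in each comparison, and of all genes 1547 were higher and 5667 lower in Model against Ctrl, and 491 and 686 in YHY against Model. Acsl1, not called in Model against Ctrl, turned there to a log2 fold change of -0.42 with library size alone, -0.0011 without a filter, -0.21 in 9 mice and ran from -0.10 to 0.22 leaving out each mouse. Acaa2 turned to -0.072 with library size alone, and Ucp2 to -0.37, to -0.17 in 9 mice, and ran from -0.12 to 0.16 leaving out each mouse. In YHY against Model the median turned to -0.11 in 9 mice and ran from -0.10 to 0.13 leaving out each mouse. Cpt2 turned to 0.0033 without the mitochondrial genome, 0.0012 with at least 10 counts in every mouse and 0.026 in the 8 mice compared, and leaving out each mouse ran from -0.28 to 0.13, Acaa2 from -0.52 to 0.025 and Ech1 from -0.32 to 0.027. In the 8 mice compared, 1 of the 35 was higher and 3 lower, and 692 of all genes lower. With the study's limits 8 of the 35 were lower, and 2429 of all genes higher and 2559 lower. Leaving out each mouse, 1 to 2 of the 35 were higher and 2 to 9 lower, and 419 to 1045 of all genes higher and 727 to 1678 lower. The cause was not tested. With the replicate number as a replicate block, 2 of the 35 were higher and 18 lower in Model against Ctrl (Crat and Ech1 lost) and 2 and 5 in YHY against Model, with 3212 and 3077, and 793 and 1127, of all genes. The numbers do not pair the mice: same-numbered mice had r from -0.17 to 0.12, and 4 of 12 correlated best with their own number.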
